A study of Mus musculus with 6 samples.

Results

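Integrins are the receptors by which cells hold on to the matrix around them, and laminins are the large matrix proteins of the basement membrane to which many of them bind. The genes described here were 35 in number, 17 integrin alpha subunits, 8 integrin beta subunits and 10 laminin chains, out of 19938 genes measured. They were chosen by name, with earlier results of these data known, and all 35 were measured. Of the 35, only Itga3, the alpha subunit of the laminin receptor alpha3 beta1, met the criteria used for the JAM-A signature, a fold of at least 1.3 with an unadjusted p under 0.05, and none passed the adjustment for multiple tests, which 0.00502% of all genes did (F11r alone).

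The series holds 6 mammary tumors, each on 1 Affymetrix Mouse Gene 1.0 ST array. MMTV-PyVmT mice express the polyoma virus middle T oncogene from a promoter active in mammary epithelium and develop mammary carcinomas, and both groups carried this transgene. Tumors 5333, 5346 and 5347 came from the JAM-A KO genotype (JAM-A-/-) and tumors 5369, 5370 and 5393 from mice with intact JAM-A (JAM-A+/+), all taken early in tumor growth. Littermates served as controls according to the methods, but no litter or age is tied to a single array, and the deletion was not limited to the tumor cells. Nothing in the labels says that tumors of a genotype grew in separate mice. The p-values here set the genotype difference only against the spread between these tumors within a genotype, which may not be spread between mice. Values are given in the order of tumors 5333, 5346 and 5347 for JAM-A-/- and 5369, 5370 and 5393 for JAM-A+/+, on the log2 scale of RMA, and differences are JAM-A-/- minus JAM-A+/+. Levels of different genes cannot be ranked on this array, since each probe set binds with its own strength.

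Each integrin is a pair of 1 alpha and 1 beta chain, and the pair decides which ligand is bound. In mammary epithelium alpha6 beta4 anchors the cell to laminin through the hemidesmosome, alpha3 beta1 and alpha6 beta1 bind laminin at focal adhesions and alpha2 beta1 binds collagen, while the beta2 and alpha4 integrins are mainly those of leukocytes. A laminin is a trimer of 1 alpha, 1 beta and 1 gamma chain, and the alpha chain carries the main integrin binding site.

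The labels were first checked with F11r, the gene for JAM-A. It read 5.91, 5.55 and 6.53 without JAM-A against 10.1, 10.23 and 10.47 with it, and the groups lay far apart, with a difference of -4.27 (SE 0.24, limma adjusted p = 0.00667). The luminal epithelial markers Krt8, Krt18 and Epcam read from 12.17 to 12.89, 11.56 to 12.34 and 11.62 to 12.07 over the 6 tumors. A tumor holds many cell types, and in RNA from whole tumors fewer cells of a type and less RNA per cell cannot be told apart.

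The members lay close to 0 as a group. Their median difference was 0.12, with a range from -0.16 for Itga2 to 0.55 for Itgb4, 26 of 35 were above 0 and Itga9 was at exactly 0. Over all 19938 genes the median was 0.09 and 71.0% were above 0. Without the 40% dimmest probe sets, which held none of the members, the median of all genes was 0.1167. When a tumor was left out, the median of the members was between 0.025 (without 5369) and 0.23 (without 5333). Of all genes, 4.73% met the criteria as higher in JAM-A-/- tumors and 0.592% as lower, against 1 and 0 of the 35 members. The 95% intervals lay within a 2-fold difference in either direction for 32 members and within a 1.5-fold difference for 19. The 3 members with wider intervals were Itgb4, Itgb3 and Lama2.

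**Figure D1:**
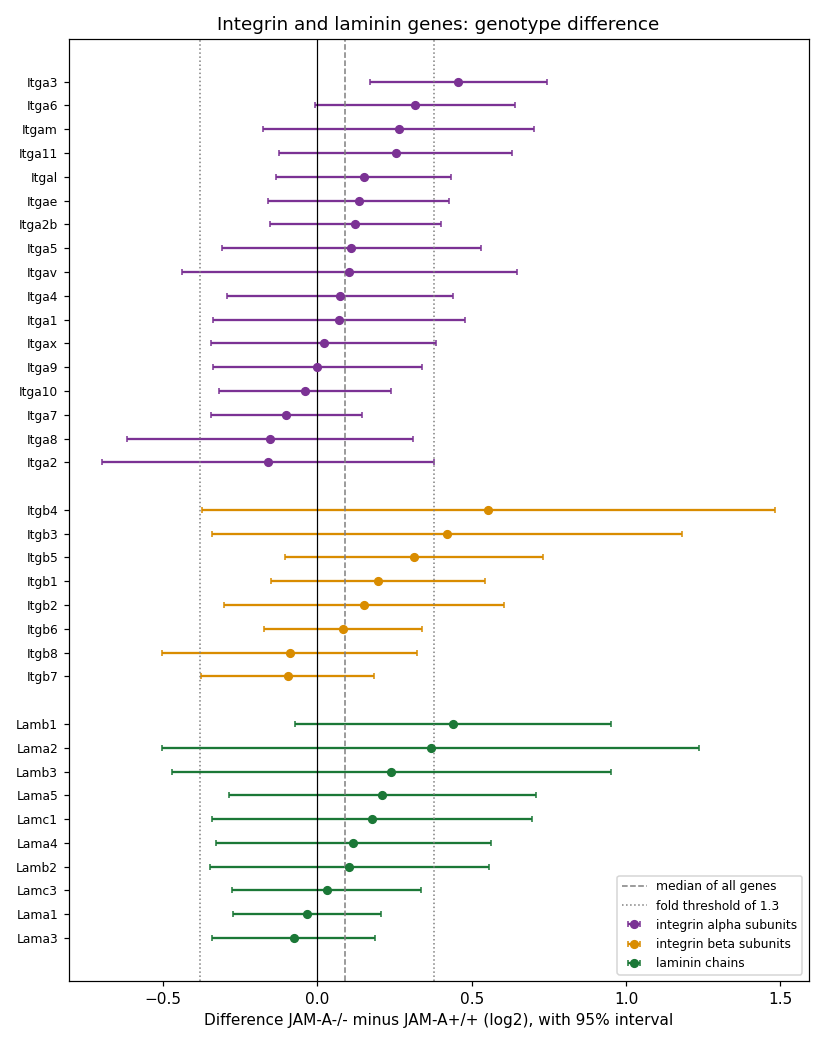
Difference between JAM-A-/- and JAM-A+/+ tumors (log2, x axis) for each of the 35 genes, sorted within integrin alpha subunits, integrin beta subunits and laminin chains, with bars for the 95% interval of the limma fit. Only the interval of Itga3 lies wholly above 0, the dashed line is the median of all genes at 0.09, and dotted lines mark a fold of 1.3.

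The integrin alpha subunits had a median difference of 0.10, with 12 of 17 above 0, and without tumor 5347 the median was -0.0017 and without 5333 it was 0.18. The largest difference was that of Itga3. It read 8.83, 8.79 and 8.89 in the JAM-A-/- tumors against 8.2, 8.45 and 8.49 in the JAM-A+/+ tumors. The 3 JAM-A-/- tumors were nearly equal and all above the JAM-A+/+ tumors, among which 5369 was lowest. The means were 8.84 ± 0.05 and 8.38 ± 0.16 (SD, n = 3 tumors each). The difference was 0.46 (SE 0.12), a 1.37-fold higher level with a 95% interval from 1.13 to 1.67. In limma its unadjusted p was 0.0064 and its adjusted p 0.323, and 8.16% of all genes had an unadjusted p under 0.05. Its fold was below 1.3 after either quantile normalization (0.34 and 0.32 on the log2 scale), after centring on the annotated probe sets, those paired with a gene (0.38), and without tumor 5369 (0.37).

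RefSeq (assembly GRCm38.p6) lists 2 promoters for Itga3 and 1 for its partner Itgb1. The genes were picked because Itga3 was the member that met the criteria and Itgb1 codes for the chain it pairs with. The lines give the 250 bases before the first listed start, read 5′ to 3′ on the strand of the gene, for Itga3 at chr11:95076715-95076964 on the minus strand and for Itgb1 at chr8:128685404-128685653 on the plus strand. Capitals mark matches, on either strand, to GGGCGG (the GC box), CCGGAA (an Ets core) or TGANTCA (AP-1).
Itga3: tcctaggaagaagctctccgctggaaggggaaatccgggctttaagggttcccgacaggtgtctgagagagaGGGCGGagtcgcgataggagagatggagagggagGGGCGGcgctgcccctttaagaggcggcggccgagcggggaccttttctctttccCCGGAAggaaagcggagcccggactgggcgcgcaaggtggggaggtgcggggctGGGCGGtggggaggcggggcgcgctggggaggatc
Itgb1: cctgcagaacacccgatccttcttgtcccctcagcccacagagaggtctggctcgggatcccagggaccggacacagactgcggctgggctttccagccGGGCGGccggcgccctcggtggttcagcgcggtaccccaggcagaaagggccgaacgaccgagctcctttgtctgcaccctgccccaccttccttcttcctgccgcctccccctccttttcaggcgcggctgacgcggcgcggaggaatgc
The printed Itga3 window held 3 GC boxes and 1 Ets core, and the Itgb1 window 1 GC box. The 250 bases before the other listed start of Itga3, not printed, held 1 GC box and no Ets core. Of 26 promoters listed for 23 of the 35 members, 34.62% held a GC box, against 32.74% of all 32851 promoters. CCGGAA was found in 1 member promoter, that of Itga3, and in 12.03% of all promoters. TGANTCA was found in 1 member promoter, that of Itgax, and in 6.75% of all promoters.

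Itga6, the alpha chain of both alpha6 beta1 and alpha6 beta4, was the second subunit with groups that did not overlap. It read 11.19, 11.49 and 11.22 in JAM-A-/- tumors and 10.81, 11.11 and 11.03 in JAM-A+/+ tumors. Every JAM-A-/- tumor was above every JAM-A+/+ tumor, by a small margin. The difference of 0.32 (SE 0.14) had an unadjusted p of 0.0537, an adjusted p of 0.462 and a 95% interval from -0.0065 to 0.64. Itga7, the laminin-binding chain known from muscle, did not overlap in the other direction, with 6.01, 6.05 and 6.12 against 6.18, 6.15 and 6.15. This gap was narrow, and the difference of -0.10 (SE 0.10, adjusted p = 0.741) was no larger than its error. Groups did not overlap in 12.4% of all genes as higher in JAM-A-/- tumors and in 2.55% as lower, against these 2 members and 1 member.

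The alpha chains that bind collagen with beta1 stood near 0. Itga2, the main collagen receptor chain of epithelium, read 6.97, 7.72 and 7.13 against 7.14, 7.74 and 7.42. Tumors 5346 and 5370 were the high ones in the respective genotypes, and the groups overlapped over most of their range. The difference was -0.16 (unadjusted p = 0.509). Itga1 differed by 0.07, Itga10 by -0.04 and Itga11, a chain of fibroblasts, by 0.25, none past the criteria.

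The chains that bind the RGD motif of fibronectin, vitronectin and related proteins were Itga5 (0.11), Itgav (0.10), Itga8 (-0.15) and Itga2b (0.12), the last a platelet chain. For Itgav the mean hid unlike tumors, since 5333 read 9.79 and the other JAM-A-/- tumors 10.72 and 10.57, around JAM-A+/+ values of 10.22, 10.23 and 10.32. Without tumor 5333 the difference of Itgav was 0.39 and met the criteria, at a setting where 10.1% of all genes met them as higher. The chains of leukocytes, and Itga9 beside them, differed by 0.26 for Itgam of macrophages and neutrophils, 0.15 for Itgal of lymphocytes, 0.13 for Itgae of intraepithelial T cells, 0.07 for Itga4, 0.02 for Itgax of dendritic cells and 0.00 for Itga9. None of these 10 alpha chains met the criteria over all 6 tumors.

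The 8 beta subunits had a median difference of 0.17, 6 of them were above 0, and none met the criteria. Their median was 0.0858 without tumor 5369 and 0.31 without 5333. Itgb4, the hemidesmosomal chain that pairs only with alpha6, read 9.28, 10.9 and 9.57 in JAM-A-/- tumors and 9.0, 9.65 and 9.44 in JAM-A+/+ tumors. One tumor, 5346, stood far above the other five, which overlapped. The difference of 0.55 was the largest of the 35, with the largest error (SE 0.40, adjusted p = 0.622, 95% interval -0.38 to 1.48). With array weights, which gave tumor 5346 the highest weight (2.37) and tumor 5333 the lowest (0.488), the difference was 0.98 with an unadjusted p of 0.0331 and met the criteria. Under that setting 6.57% of all genes met them as higher. Without tumor 5346 the difference of Itgb4 was 0.0617.

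Itgb1, the chain shared by most integrins, read 11.03, 11.46 and 11.48 against 11.07, 11.14 and 11.17. The JAM-A+/+ tumors were within 0.10 of each other and tumor 5333 was just below them, while 5346 and 5347 were above. The difference was 0.20 (SE 0.15, adjusted p = 0.636, 95% interval -0.15 to 0.54). Itgb5, which pairs with alpha v to bind vitronectin, had the smallest unadjusted p of the class, 0.122, with 10.28, 10.65 and 10.99 against 10.32, 10.35 and 10.31. Again 5333 was at the JAM-A+/+ level and the other JAM-A-/- tumors were above it, for a difference of 0.31 (SE 0.18, adjusted p = 0.548) that was 0.49 without 5333 and 0.14 without 5347. Itgb3, the other vitronectin receptor chain and the partner of the platelet alpha chain, differed by 0.42 and Itgb2 of leukocytes by 0.15. Without tumor 5333 both Itgb3 and Itgb5 met the criteria, as 10.1% of all genes then did as higher. Itgb6 and Itgb8, epithelial chains that bind latent TGF-beta, differed by 0.08 and -0.09, and Itgb7 of lymphocytes by -0.10.

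**Figure D2:**
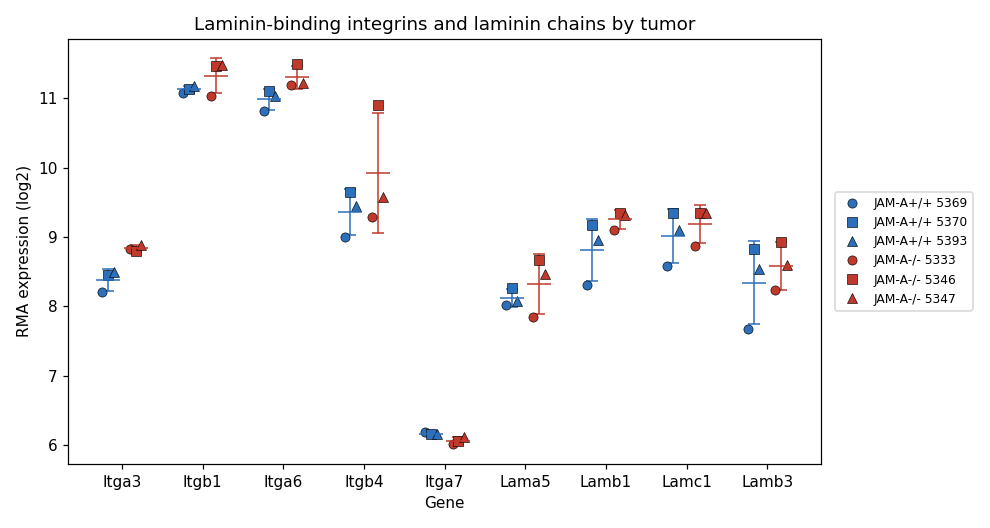
RMA expression (log2, y axis) of laminin-binding integrin chains, Itgb1 and 4 laminin chains in each tumor, JAM-A+/+ in blue and JAM-A-/- in red, with horizontal lines for the mean and bars for the SD (n = 3 tumors each). Itga3 and Itga6 lie higher without overlap in JAM-A-/- tumors, Itga7 lies lower without overlap, Itgb4 is spread by tumor 5346, and heights of different genes are not comparable.

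The chains were also set side by side as receptors. Since no beta chain met the criteria, no pair could meet them together. For alpha3 beta1 the differences were 0.46 and 0.20, and for alpha6 beta4 they were 0.32 and 0.55. The vitronectin receptors had Itgav at 0.10 with Itgb3 at 0.42 and Itgb5 at 0.31. Other partners of Itgav, Itgb6 and Itgb8, were at 0.08 and -0.09, and Itga2b, which pairs with Itgb3, was at 0.12. The leukocyte receptors had Itgal, Itgam and Itgax at 0.15, 0.26 and 0.02 with Itgb2 at 0.15, and Itga4 and Itgae at 0.07 and 0.13 with Itgb7 at -0.10.

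The 10 laminin chains had a median difference of 0.15 with 8 above 0, and none met the criteria. That median turned to -0.0258 without tumor 5369, where 4 of 10 were above 0, and to -0.0085 after quantile normalization over annotated probe sets, and it was 0.31 without tumor 5333. The smallest unadjusted p was that of Lamb1, the beta chain of the widespread laminins, at 0.0824. It read 9.1, 9.34 and 9.32 in JAM-A-/- tumors against 8.31, 9.17 and 8.96, so that tumor 5369 was low and the groups overlapped through 5370 and 5333. The difference was 0.44 (SE 0.22, adjusted p = 0.504), and without tumor 5370 it was 0.62 and met the criteria, as 4.76% of all genes then did as higher, while without tumor 5369 it was 0.19. Lamc1, the gamma chain that joins Lamb1 in most trimers, read 8.87, 9.34 and 9.34 against 8.58, 9.34 and 9.1, a difference of 0.18. Here 5370 equalled the higher JAM-A-/- tumors.

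Lama5, the alpha chain of the main laminin of adult epithelium, read 7.84, 8.67 and 8.47 against 8.02, 8.26 and 8.07. Tumor 5333 was the lowest of all and 5346 and 5347 the highest, so the difference of 0.21 had an unadjusted p of 0.357, and without 5333 it was 0.45 and met the criteria, as 10.1% of all genes then did as higher. Without tumor 5346 it was 0.0383. Lamb3 and Lama3 belong to the laminin that alpha6 beta4 binds at hemidesmosomes. Lamb3 read 8.23, 8.92 and 8.59 against 7.67, 8.82 and 8.53 (difference 0.24), and Lama3 read 6.28, 6.38 and 6.45 against 6.36, 6.45 and 6.53 (difference -0.08). The groups overlapped for both chains. Lama1, the alpha chain of embryonic and early epithelial laminin, read 7.1, 7.07 and 7.1 against 7.12, 7.1 and 7.15, the smallest spread of all members. Lama2 of muscle and nerve sheaths differed by 0.37, Lama4 of vessels by 0.12, Lamb2 by 0.10 and Lamc3 by 0.03.

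Tumors of 1 genotype also differed from each other in these genes. The members' median SD within a genotype was 0.24, against 0.17 over all genes, and by class it was 0.20 for alpha subunits, 0.25 for beta subunits and 0.30 for laminin chains. The value over all genes includes genes of the 40% dimmest probe sets, which held none of the members, so the comparison is not like for like. Tumor 5333 alone was the lowest JAM-A-/- tumor in 26 of the 35 members, or 74.29%, against 52.79% of all genes. Tumor 5369 alone was the lowest JAM-A+/+ tumor in 27 members, or 77.14%, against 50.55% of all genes. The mean deviation of the laminin chains from their own averages was -0.17, 0.18 and 0.22 in JAM-A-/- tumors and -0.37, 0.13 and 0.0083 in JAM-A+/+ tumors. Within each genotype 1 tumor was thus low and the other two were higher, and JAM-A-/- tumor 5333 was below JAM-A+/+ tumors 5370 and 5393. In the beta subunits 5333 and 5369 were the low tumors too, with -0.21, 0.31 and 0.18 against -0.30, 0.0094 and 0.0044.

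**Figure D3:**
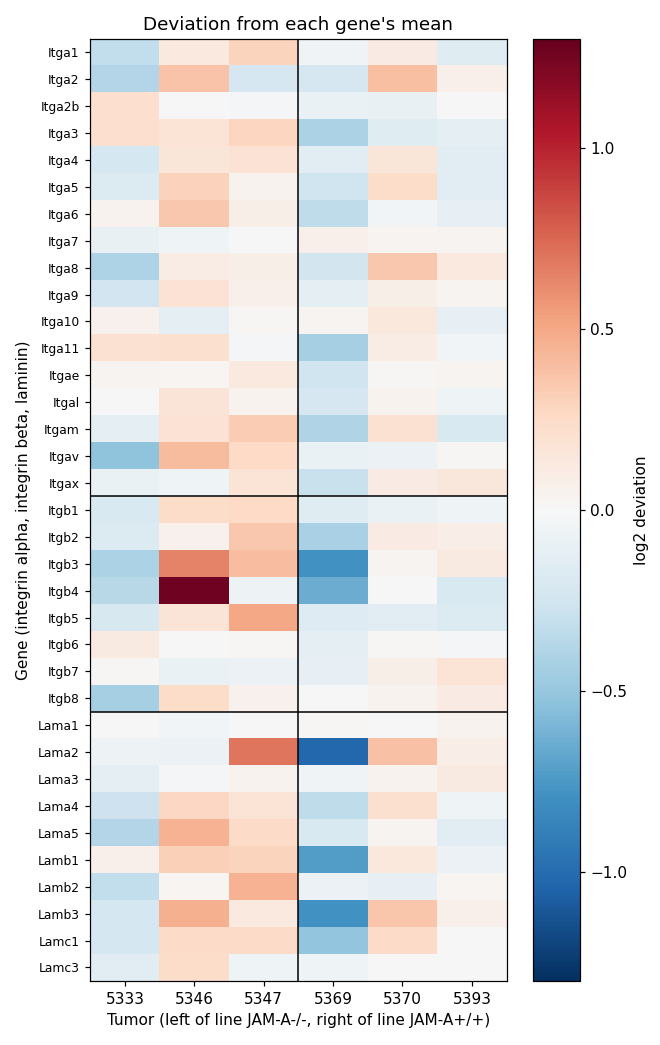
Deviation of each of the 35 genes (rows) from its own mean over the 6 tumors (columns), on the log2 scale by colour, red above and blue below, with JAM-A-/- tumors left of the vertical line and horizontal lines between the classes. Tumor 5333 is the lowest JAM-A-/- tumor in 26 rows and 5369 the lowest JAM-A+/+ tumor in 27, and the strongest colours are those of Itgb4 in tumor 5346 and Lama2 in tumor 5369.

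Partners of these receptors were read as 5 lists, from the cell inside to the matrix outside. None of the 21 focal adhesion proteins inside the cell met the criteria, with a median of 0.12. Ilk, the integrin-linked kinase that binds beta chains, had the smallest p (difference 0.30, unadjusted p = 0.0953), followed by Tns3, a tensin (0.26, unadjusted p = 0.13). The median of this list was -0.01 after quantile normalization over annotated probe sets, where that of all genes was 0.0022. None of the 9 hemidesmosome and tetraspanin partners met them either, with a median of 0.20. Cd151, the tetraspanin that binds alpha3 and alpha6 integrins, read 10.24, 10.33 and 10.49 against 9.77, 10.17 and 10.17, without overlap (difference 0.32, unadjusted p = 0.0691), and Cd9 differed by 0.31. Without tumor 5333, 3 genes of each of these 2 lists met the criteria. The 7 other laminin receptors had a median of 0.24 with none meeting the criteria over all 6 tumors, Sdc1 at 0.39 and Cd44 at 0.26. Without tumor 5333, 5 of these 7 met them, where 10.1% of all genes did as higher, and with any other tumor left out 0 of 7 did.

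Of 18 other basement membrane proteins 1 met the criteria, Nid2 (nidogen 2), which links laminin to collagen IV, and their median was 0.20. Over all genes the share that met the criteria as higher was 4.73%. Nid2 read 7.34, 7.11 and 6.93 in JAM-A-/- tumors against 6.44, 6.58 and 6.52. The groups did not overlap, and 12.4% of all genes were without overlap and higher in JAM-A-/- tumors. The difference was 0.61 (SE 0.14, adjusted p = 0.256). The count of this list was 4 without tumor 5333, 5 without 5370, 2 without 5393 and 1 without each of the others. Of all genes, 10.1% met the criteria as higher without 5333, 4.76% without 5370 and 6.52% without 5393.

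The 23 other integrin ligands had the highest median of the 5 lists, 0.33, and 6 of them met the criteria, all higher in JAM-A-/- tumors. None of the 23 passed the adjustment. Of all genes, 4.73% met the criteria as higher. Thbs2, a matricellular thrombospondin, read 9.68, 9.99 and 9.49 against 8.85, 9.19 and 8.7 (difference 0.81, adjusted p = 0.256). Ccn1 read 10.41, 10.57 and 10.24 against 9.71, 9.97 and 9.71 (0.61, adjusted p = 0.258), and Ccn2 read 9.84, 10.35 and 9.79 against 8.82, 9.44 and 9.35 (0.79, adjusted p = 0.324). Both are secreted CCN proteins known as targets of YAP and TGF-beta signalling. Fgg, the gamma chain of fibrinogen, had the largest difference, 1.38 (adjusted p = 0.32), with 7.42, 6.78 and 6.16 against 5.41, 4.85 and 5.97. In these 4 genes every JAM-A-/- tumor was above every JAM-A+/+ tumor, as in 12.4% of all genes. The other chains of fibrinogen, Fga and Fgb, differed by -0.06 and 0.04. The remaining genes were Tnc, tenascin C (0.90), and Mfge8, a milk fat globule protein that bridges alpha v integrins to dying cells (0.49). Fn1, fibronectin, did not meet the criteria, with 10.24, 10.71 and 10.83 against 9.55, 10.63 and 10.0 (0.53, unadjusted p = 0.0953). The count of 6 was between 4 and 10 when a tumor was left out. It was 10 without 5370, where 4.76% of all genes met the criteria as higher, and 9 without 5333, where 10.1% did. The 4 genes Thbs2, Ccn1, Ccn2 and Fgg made up the count without tumor 5346 and without tumor 5369.

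**Figure D4:**
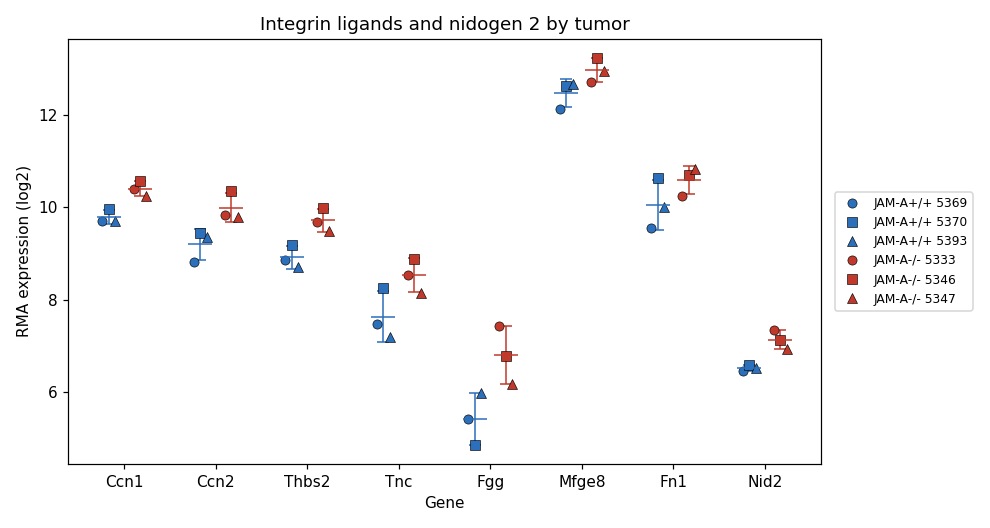
RMA expression (log2, y axis) of the 6 integrin ligands that met the criteria, of Fn1 and of Nid2 in each tumor, JAM-A+/+ in blue and JAM-A-/- in red, with the mean and SD (n = 3 tumors each). Red points lie above all blue points for every gene shown except Tnc and Fn1, and heights of different genes are not comparable.

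Markers of the cell types that a mammary tumor can hold were read in the same way. Of 10 basal and myoepithelial markers 3 met the criteria as higher in JAM-A-/- tumors (Acta2, Cnn1 and Tagln). In the same list Krt5, Krt14 and Trp63 differed by 0.08, 0.01 and 0.03, and the list median was 0.13. Of 12 endothelial markers 2 met them as higher (Pecam1 and Flt1), of 7 pericyte markers 2 (Abcc9 and Des) and of 10 fibroblast markers 2 (Col1a2 and Pdgfra). Of 8 skeletal muscle markers 3 did (Acta1, Myh1 and Des) and of 4 Schwann cell markers 1. Des was in both the pericyte and the skeletal muscle list. None of 11 luminal, 12 macrophage, 8 dendritic cell, 9 T cell, 6 B cell, 4 platelet or 6 adipocyte markers met the criteria. No marker met them as lower over all 6 tumors, and no gene is listed at 0 on this array. Of all genes 4.73% met them as higher. These counts depended on single tumors. Of all genes, 10.1% met the criteria as higher without 5333, 6.52% without 5393 and 4.76% without 5370. That share was 4.05% without 5346, 3.17% without 5347 and 2.52% without 5369. With 1 tumor left out the count of endothelial markers was between 0 (without 5346, 5347, 5369 or 5393) and 6 (without 5333), that of fibroblast markers between 0 (without 5346, 5347 or 5369) and 3 (without 5370), and that of skeletal muscle markers between 1 (without 5346 or 5393) and 7 (without 5370). The basal and myoepithelial count was between 1 (without 5346, 5369 or 5393) and 3, the pericyte count between 2 and 3, the Schwann cell count 1 without 5333 and 0 otherwise, and the luminal count 4 without 5333 and 1 without 5370. As lower, Elf5 of the luminal list met the criteria without 5347 and after either quantile normalization. Without 5369, Pf4 of the platelet list and Plin1 of the adipocyte list met them as lower. Of all genes, 0.737% did as lower without 5347 and 0.587% without 5369. After quantile normalization over all and over annotated probe sets 0.873% and 1.52% did. The summed level of the fibroblast markers, as a log2 value, ranged from 13.64 to 14.10 in JAM-A-/- tumors and from 12.97 to 13.85 in JAM-A+/+ tumors. For endothelium these ranges were 10.565 to 11.003 and 10.196 to 10.719, and for basal and myoepithelial cells 11.58 to 11.86 and 11.13 to 11.75. The luminal markers ranged from 14.54 to 15.12 and from 14.52 to 14.84. The ranges of the genotypes overlapped in each of these lists.

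The low tumors of the integrin and laminin genes were low in several of these lists too. Fibroblast markers deviated by -0.69 in tumor 5369 and -0.125 in 5333, endothelial markers by -0.44 and -0.08, luminal markers by -0.26 and -0.21, and adipocyte markers by -1.14 and -0.56. Over all genes these tumors deviated by -0.11 and -0.03. Basal and myoepithelial markers were low in 5369 (-0.25) but not in 5333 (0.11). The part of these cell types in the values of the integrin and laminin genes was not tested.

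**Figure D5:**
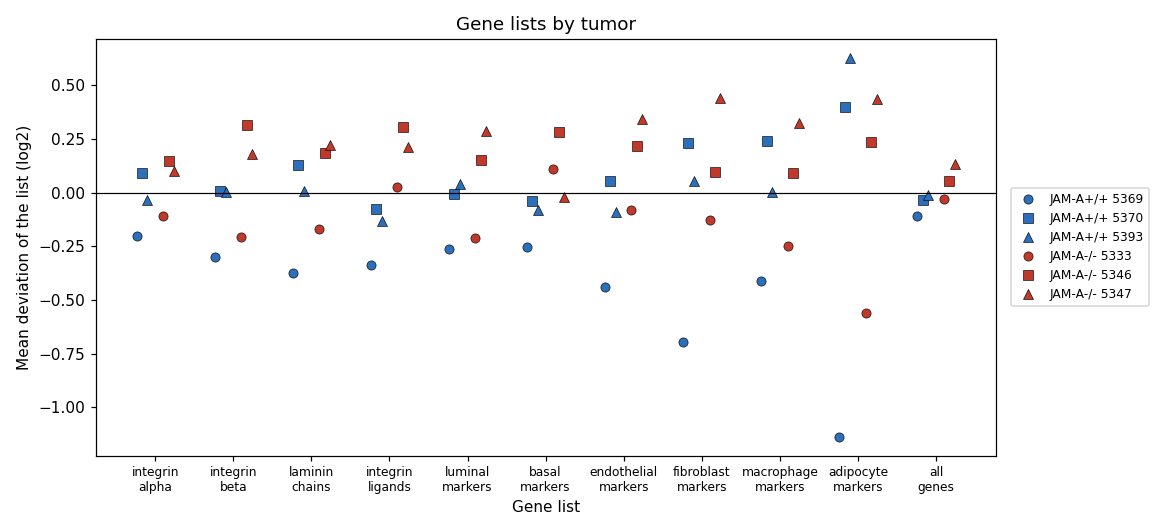
Mean deviation (log2, y axis) of each gene list from its genes' own averages in each tumor, JAM-A+/+ in blue and JAM-A-/- in red, for the 3 classes, the integrin ligands, 6 marker lists and all genes. Tumor 5369 is the lowest blue point in every list shown, and tumor 5333 is the lowest red point in every list except the basal markers.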

How the data were processed

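RNA of 3 JAM-A-/- and 3 JAM-A+/+ tumors was hybridized to 1 array each. The deposited log2 values were made by the authors with RMA in Affymetrix Expression Console 1.1, per the submitters' processing notes, and carry 2 decimals. RMA scales the arrays to each other, so total RNA cannot be read from them, with settings not given in the sources used here. Arrays give no read depth, and their number limits the precision.

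One limma 3.58.1 fit (R 4.3.3, lmFit and eBayes, no covariate) was made over 35557 probe sets, with Benjamini-Hochberg adjustment over all of them. Genes were read from probe sets with 1 symbol in the platform annotation (21789, with 1621 holding several and 12147 not listed, and 21698 symbols matched to RefSeq by gene identifier), 1 per gene by the highest mean. All members had 1 such probe set, and Itgam also had 3 shared with Rpl35 that were not used. The fold of 1.3 and unadjusted p of 0.05 were read from the study's supplementary table, whose fold changes and p-values were not used. An exact permutation test with 3 against 3 tumors cannot go below p = 0.1. No arrays held identical values, and the steps were tested on simulated data.

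Members, the 5 partner lists and the 13 marker lists were chosen with earlier results of these data known, so no list was tested. Values by tumor are given for F11r and for members meeting the criteria or not overlapping. They are also given for the 2 smallest p of each class and 11 named epithelial receptor and laminin chains. In the partner lists they are given for the leading genes that met the criteria. For leading genes of lists with no call the difference is given, in part with its p. Tnc, Mfge8, Fn1, Fga, Fgb and the tumor values of Itgav and Cd151 were added after their values were seen. Alternatives were quantile normalization and centring (each over all and over annotated probe sets), array weights, an intensity trend in the prior made robust, equal-variance and unequal-variance tests, leaving out the 40% dimmest probe sets, the mean over probe sets, a fold of 1.5 and leaving out each tumor.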

Additional observations from a re-analysis of the deposited data

How the results depend on the processing

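The single call depended on the scaling of the arrays. The count of alpha subunits meeting the criteria, 1, became 0 after quantile normalization over all or over annotated probe sets (those paired with a gene), after centring on annotated probe sets and at a fold of 1.5, and it ranged from 0 to 2 when a tumor was left out (0 without 5369, and Itga3 and Itgav without 5333). The count of beta subunits, 0, became 1 with array weights (Itgb4) and ranged from 0 to 2 (Itgb3 at 0.73 and Itgb5 at 0.49 without 5333, but 0.13 for Itgb3 without 5369 and 0.14 for Itgb5 without 5347). That of laminin chains ranged from 0 to 1 (Lama5 without 5333, Lamb1 without 5370). The cause of these changes was not tested. Of all genes, 10.1% met the criteria as higher without 5333, 6.57% with array weights, 4.76% without 5370 and 2.52% without 5369. That share was 2.86% and 1.8% after quantile normalization over all and over annotated probe sets. It was 2.49% after centring on annotated probe sets and 1.22% at a fold of 1.5. F11r stayed at -4.27 with an adjusted p of 0.453 in the equal-variance and 0.735 in the unequal-variance test, where fewer degrees of freedom were used, and ranged from -4.54 to -4.05 when a tumor was left out, with adjusted p of 0.0507 to 0.0839 without 5333, 5369, 5370 or 5393. The median of the alpha subunits ranged from -0.0017 to 0.18, of the beta subunits from 0.0858 to 0.31 and of the laminin chains from -0.0258 to 0.31 when a tumor was left out. The median of all genes was 0.09, and 0.0675, 0.0022, 0.01 and 0.1467 after quantile normalization over all and annotated probe sets and centring on annotated and on all probe sets.

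Itga9, at exactly 0, had no direction to keep, and its 16 values under alternatives ranged from -0.0933 to 0.13. The values counted here leave out the fold of 1.5, which changes no difference and at which Itga3 lost the criteria. Of the 544 values of the other 34 members, 497 kept their direction and side of the criteria, 4 lost the criteria, 6 gained them and 37 changed sign. None of these 37 met the criteria, and the largest of them in size was 0.12. Signs changed after quantile normalization over annotated probe sets for Itga1 (-0.0425), Itgav (-0.12), Itgax (-0.0544), Itgb6 (-0.0111), Lama4 (-0.0489), Lamb2 (-0.0906) and Lamc3 (-0.0303), and over all probe sets for Itga10 (0.0244), Itgav (-0.11), Lama4 (-0.0361) and Lamb2 (-0.0828). They changed after centring on annotated probe sets for Itga1 (-0.01), Itga4 (-0.0067), Itgax (-0.06) and Lamc3 (-0.05), on all probe sets for Itga10 (0.0167) and Lama1 (0.0233), and with array weights for Itgax (-0.0749) and Itgb8 (0.0615). Leaving out a tumor gave ranges of -0.0583 to 0.25 for Itga1, -0.0017 to 0.21 for Itga4, -0.0133 to 0.26 for Itga5, -0.31 to 0.01 for Itga8, -0.10 to 0.0167 for Itga10, -0.0767 to 0.39 for Itgav, -0.12 to 0.10 for Itgax, -0.0217 to 0.28 for Itgb2, -0.23 to 0.10 for Itgb8, -0.0517 to 0.65 for Lama2, -0.0167 to 0.28 for Lama4, -0.10 to 0.29 for Lamb2, -0.10 to 0.48 for Lamb3, -0.0367 to 0.34 for Lamc1 and -0.0817 to 0.11 for Lamc3. No paired analysis was possible because the genotypes share no tumor numbers.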
